A study of Mus musculus with 2 samples.

Results

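The smooth muscle contractile genes are a set of 10 genes, Acta2, Actg2, Des, Myh11, Cnn1, Tagln, Lmod1, Mylk, Synpo2 and Myocd, taken by symbol from the 32285 genes counted in nuclei of the mouse colon. All 10 genes were detected in both libraries. The question was whether Acta2, the gene of smooth muscle alpha-actin that is also used as a marker of myofibroblasts, and Des, the gene of the intermediate filament protein desmin, moved together with the other genes of the contractile apparatus. The study compared WT mice with their littermates termed HIF-1α KO, which carried Ncr1cre+ and loxP-flanked Hif-1α alleles (fl+/fl+), so that Cre was driven by the promoter of Ncr1, the gene of NKp46. The deletion was thus aimed at NKp46+ innate lymphoid cells, including NK cells, and not at muscle. Mice of both groups were 8 to 12 weeks old and received 2% dextran sodium sulfate (DSS), a chemical that injures the colonic epithelium, in drinking water for 3 days followed by 4 days of recovery, in 4 cycles. Nuclei of 3 animals per genotype were pooled into 1 library each, so animals could not be told apart and there was no replicate. For this reason no test between the genotypes was possible, and all intervals below are exact 95% intervals that cover counting error only.

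In visceral smooth muscle, actin and myosin filaments slide against each other after calcium activates myosin light chain kinase, and desmin, dense-body proteins and actin-binding proteins carry the force through the cell. The genes of this apparatus are known targets of serum response factor, which binds a DNA element called the CArG box, and of its cofactor myocardin, the product of Myocd. In the gut wall, smooth muscle forms the muscularis propria and the muscularis mucosae, and Acta2 is also made by pericytes and by activated fibroblasts.

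Because the set is known for this element, the 250 bases before the RefSeq start of Acta2 and Des (build GRCm38.p6) are shown as the genes the question turned on. The Acta2 sequence lay on the minus strand at chr19:34255374-34255623 and the Des sequence on the plus strand at chr1:75360042-75360291. Both are written 5′ to 3′, and capitals mark a CArG box with 1 base other than A or T in its core.
Acta2: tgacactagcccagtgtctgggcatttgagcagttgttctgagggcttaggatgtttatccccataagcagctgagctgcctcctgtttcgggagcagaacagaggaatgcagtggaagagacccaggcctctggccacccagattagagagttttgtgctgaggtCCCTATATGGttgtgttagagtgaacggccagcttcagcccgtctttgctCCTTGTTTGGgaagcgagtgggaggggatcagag
Des: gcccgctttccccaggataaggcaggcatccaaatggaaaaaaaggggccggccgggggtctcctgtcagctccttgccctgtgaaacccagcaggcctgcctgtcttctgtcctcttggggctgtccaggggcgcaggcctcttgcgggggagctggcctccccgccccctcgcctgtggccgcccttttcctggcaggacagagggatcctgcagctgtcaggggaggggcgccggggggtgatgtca
The Acta2 sequence held 2 such boxes, beginning 84 and 34 bases before the start, and the Des sequence held none. RefSeq promoters were matched for 6 of the 10 genes (Acta2, Des, Cnn1, Lmod1, Mylk and Synpo2), and Acta2 was the 1 gene of these 6 with a box. Over all 27025 genes with a promoter, 9.78% held a box of this kind within the same 250 bases and 1.62% held one with only A and T in the core, which none of the 6 had. The pattern reads the same on both strands, and a match or its absence in this window is a description of letters only.

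Nuclei were kept with 400 to 5000 detected genes and at most 10% mitochondrial UMIs (unique molecular identifiers, each standing for 1 captured transcript). This left 4884 WT and 4702 HIF-1α KO nuclei with a median of 2058.5 and 4197 UMIs, so the HIF-1α KO library was the deeper one. The libraries shared 3 cell barcodes, 0 of them in smooth muscle nuclei of both. Smooth muscle nuclei were found by clustering without the contractile genes and named by Carmn, Pgm5, Sntg2, Dmd and Cacnb2. There were 265 in WT (5.43% of nuclei, interval 4.81 to 6.10) and 121 in HIF-1α KO (2.57%, interval 2.14 to 3.07), with a median of 1969 and 2437 UMIs. Fibroblast nuclei numbered 228 and 120, and the remaining 4391 and 4461 nuclei were grouped as other nuclei. Hif1a, the targeted gene, had 2284 and 4699 UMIs in all nuclei, or 172 and 199 counts per 1000000 UMIs (CPM), and 137 and 178 CPM in smooth muscle nuclei. Ncr1 itself had 1 and 0 UMIs, so nuclei in which Cre is active could not be picked out and Hif1a did not check the genotype labels.

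The 10 genes were highest in smooth muscle nuclei of both libraries. Together they reached 7262 CPM in WT smooth muscle nuclei and 829 CPM in WT fibroblast nuclei, an 8.76-fold difference (interval 7.95 to 9.66). In HIF-1α KO the levels were 14666 and 1222 CPM, a 12.01-fold difference (interval 10.9 to 13.3). In epithelial nuclei the set stood at 193 CPM in WT and 168 CPM in HIF-1α KO. Smooth muscle nuclei held 58.0% of all UMIs of the set in WT and 62.0% in HIF-1α KO, although they were a small share of nuclei. Actg2 was the most confined to smooth muscle, with 81.1% and 85.5% of its UMIs there. Mylk was the least confined in HIF-1α KO, with 19.5% against 30.2% in WT, and its UMIs in absorptive enterocyte nuclei numbered 241 in WT and 891 in HIF-1α KO (109 and 149 CPM).

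**Figure D1:**
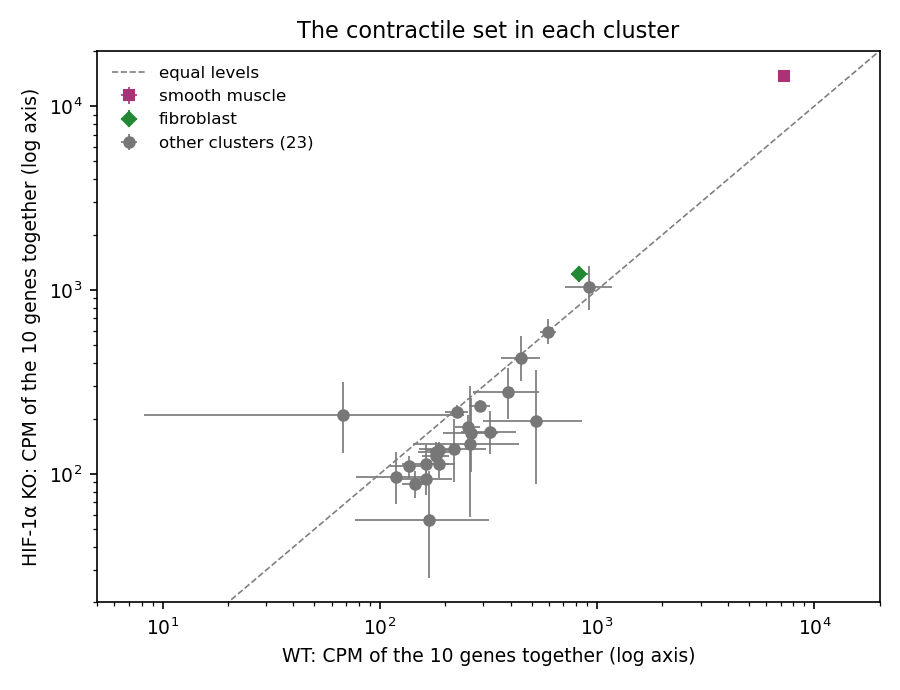
Summed level of the 10 contractile genes in each cluster of nuclei, in CPM on log axes, with WT on the horizontal and HIF-1α KO on the vertical axis. Bars are exact 95% counting intervals. The smooth muscle cluster (7262 and 14666 CPM) and the fibroblast cluster (829 and 1222 CPM) lie above the line of equal levels, and most other clusters lie below it.

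In smooth muscle nuclei the contractile set was 2.02-fold higher in the HIF-1α KO library than in the WT library (log2 ratio 1.01, interval 0.96 to 1.07), from 4666 UMIs in WT and 6677 in HIF-1α KO. Acta2 and Des were both among the higher genes: Acta2 stood close to the set as a whole, and Des stood above it. Of the 10 genes, 8 were at least 1.5-fold higher, beside 11.8% of the 4150 genes with at least 50 UMIs in this class, and 0 were at least 1.5-fold lower, beside 8.1%. The median log2 ratio was 1.03 over the 10 genes, 1.01 over the 8 genes other than Acta2 and Des, and 0.02 over all 4150 genes. These ratios compare 1 library with 1 library. When each nucleus was instead assigned by its own markers, the summed set stood at a log2 ratio of 0.44, Acta2 at 0.42 and Des at 0.85, and 3 of the 10 genes (Actg2, Des and Cnn1) were at least 1.5-fold higher.

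The actins were higher by different amounts. Acta2 had 266 UMIs in WT (414 CPM, interval 366 to 467) and 374 in HIF-1α KO (821 CPM, interval 740 to 909). Its intervals did not overlap, and the ratio was 1.98-fold (log2 0.99, interval 0.76 to 1.22). Actg2, the gamma-actin of visceral smooth muscle, had 1009 UMIs in WT (1570 CPM) and 1830 in HIF-1α KO (4020 CPM), which was 2.56-fold higher (log2 1.36, interval 1.24 to 1.47). The log2 intervals of both actins lay just apart, with an upper limit of 1.22 for Acta2 and a lower limit of 1.24 for Actg2. In subgroup A, described below, they overlapped (0.89 to 1.44 and 1.29 to 1.54). With nuclei thinned to 1000 UMIs the log2 ratios were 1.07 and 1.21. Whether the enteric isoform differed by more than the isoform shared with vascular muscle was not tested.

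Of the myosin genes, Myh11, which encodes the smooth muscle myosin heavy chain, had 1453 UMIs in WT (2261 CPM) and 2164 in HIF-1α KO (4753 CPM). It was 2.10-fold higher (log2 1.07, interval 0.98 to 1.17), close to the value of the whole set. Mylk, the gene of myosin light chain kinase, which starts contraction by phosphorylating the light chain, had 335 and 400 UMIs (521 and 879 CPM). Its ratio was 1.69-fold (log2 0.75, interval 0.54 to 0.97), the smallest of the 8 genes past 1.5-fold.

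The thin-filament proteins held both the gene with the widest difference and genes near the set's value. Cnn1, the gene of calponin, which binds actin and slows the myosin cycle, had 34 UMIs in WT (52.9 CPM, interval 36.6 to 73.9) and 144 in HIF-1α KO (316 CPM, interval 267 to 372). It was 5.98-fold higher (log2 2.58, interval 2.03 to 3.16) and ranked 4 of 4150 genes from the highest ratio. Tagln, the gene of the actin-binding protein transgelin, had 126 and 173 UMIs (196 and 380 CPM), a ratio of 1.94-fold (log2 0.95, interval 0.61 to 1.30). Lmod1, whose leiomodin protein starts new actin filaments, had 147 and 223 UMIs (229 and 490 CPM), a ratio of 2.14-fold (log2 1.10, interval 0.79 to 1.41). Tagln and Lmod1 thus lay within the counting error of Acta2.

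Des and Synpo2 belong to the scaffold that links filaments to dense bodies and to each other. Des had 167 UMIs in WT (260 CPM, interval 222 to 302) and 330 in HIF-1α KO (725 CPM, interval 649 to 807). It was 2.79-fold higher (log2 1.48, interval 1.21 to 1.76) and ranked 28 of 4150 genes. Synpo2, which encodes an actin-bundling protein of dense bodies and Z-discs, had 740 and 783 UMIs (1152 and 1720 CPM). Its ratio was 1.49-fold (log2 0.58, interval 0.43 to 0.73), just under the 1.5-fold limit that Mylk had just passed.

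Myocd, the gene of the cofactor myocardin, was the 1 member that was not higher in these sums. It had 389 UMIs in WT (605 CPM, interval 547 to 669) and 256 in HIF-1α KO (562 CPM, interval 496 to 636), so its intervals overlapped. The log2 ratio was -0.11 (interval -0.34 to 0.12), rank 2640 of 4150. Its direction turned with the setting, to 0.17 with nuclei thinned to 1000 UMIs and 0.42 at the finer clustering, and it was -0.66 with nuclei assigned by their own markers.

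**Figure D2:**
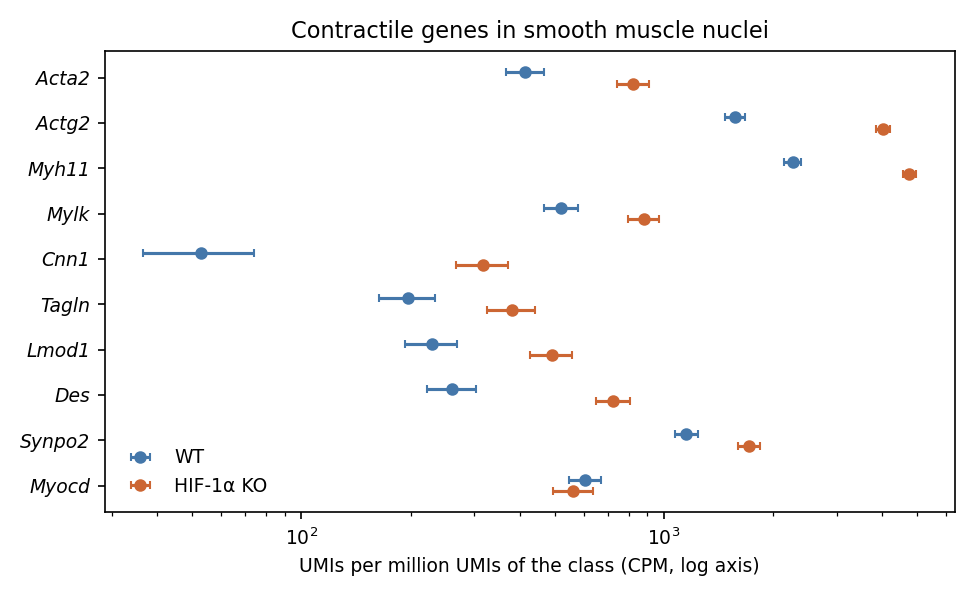
Level of each contractile gene in smooth muscle nuclei of the WT and the HIF-1α KO library, in CPM of the class on a log axis. Points are 1 library each and bars are exact 95% Poisson intervals. The intervals are apart for 9 genes and overlap for Myocd.

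Whether Acta2 and Des kept their place within the set was read from their shares of the set's UMIs, which do not depend on scaling to all other genes. Acta2 made up 5.70% of the set in WT (interval 5.05 to 6.41) and 5.60% in HIF-1α KO (interval 5.06 to 6.18), shares within counting error of each other. Des made up 3.58% (interval 3.06 to 4.15) and 4.94% (interval 4.43 to 5.49), so its share was larger in HIF-1α KO. The shares of Cnn1 (0.729% and 2.16%) and Actg2 (21.6% and 27.4%) were larger as well. Those of Myocd (8.34% and 3.83%), Synpo2 (15.9% and 11.7%) and Mylk (7.18% and 5.99%) were smaller. Acta2 therefore kept its proportion of the set while Des exceeded it.

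The 5 marker genes that named the class were not level either. Carmn, a long noncoding RNA of smooth muscle, stood at 542 CPM in WT and 969 CPM in HIF-1α KO. Sntg2 stood at 1085 and 1799 CPM, Pgm5 at 1049 and 1570 CPM, Dmd, the gene of dystrophin, at 4181 and 4848 CPM, and Cacnb2, a calcium channel subunit, at 2258 and 1997 CPM. Together they were 1.23-fold higher (interval 1.18 to 1.27). Counted per UMI of these 5 markers, the contractile set was still higher, at a log2 ratio of 0.72, with Acta2 at 0.69 and Des at 1.18. Mitochondrial UMIs made up 0.20% and 0.42% of the class, and Muc2, the goblet mucin, stood at 420 and 679 CPM. The part of these differences in the set's level was not tested.

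Markers of other contractile cells were mixed. The 7 pericyte markers summed to 534 CPM in WT and 510 CPM in HIF-1α KO smooth muscle nuclei, with Higd1b at 0 UMIs in each library. Abcc9 gave most of this sum, with 255 and 159 UMIs, while Rgs5 had 26 and 43 UMIs (40.5 and 94.4 CPM) and was 2.33-fold higher (interval 1.40 to 3.96). The 3 markers of interstitial cells of Cajal, the pacemaker cells of the gut wall, summed to 341 and 270 CPM, and the 10 fibroblast markers to 241 and 167 CPM. The 7 goblet markers, which mark RNA from mucus cells, summed to 1301 and 2082 CPM, the 5 markers of absorptive enterocytes to 479 and 698 CPM, the 2 of crypt enterocytes to 615 and 329 CPM, the 6 of stem and cycling cells to 299 and 224 CPM, the 5 of enteroendocrine cells to 123 and 70.3 CPM and the 4 shared by epithelial cells to 1040 and 1353 CPM. The 6 immune markers summed to 184 and 119 CPM, the 6 of blood endothelium to 42.0 and 39.5 CPM and the 6 of lymphatic endothelium to 31.1 and 6.59 CPM. The part of these markers in the level of the set was not tested.

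A list of 36 further genes of the contractile apparatus was read beside the set. Of these, 29 had at least 50 UMIs in smooth muscle nuclei, 13 were at least 1.5-fold higher in HIF-1α KO, 0 were at least 1.5-fold lower and 16 lay between, with a median log2 ratio of 0.50. Over all 4150 tested genes, 11.8% were higher and 8.1% lower by this limit. The list was chosen with earlier results of these data known and is not independent of them. Thin-filament genes had 3 of 4 past the limit: Tpm2 (2.37-fold, 68 and 114 UMIs), a tropomyosin, Cald1 (1.78-fold), the gene of caldesmon, and Smtn (1.54-fold), while Tpm1 stood at 1.05-fold. Attachment and scaffold genes had 7 of 9, among them Synm (2.42-fold), an intermediate filament partner of desmin, Pdlim3 (2.03-fold) and Vcl (1.77-fold), the gene of vinculin. Flna and Actn1, the genes of filamin A and an alpha-actinin, stood at 0.996-fold and 1.06-fold.

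Of 6 tested genes of the myosin light chains and their control, Myl9 (1.58-fold, interval 1.06 to 2.38), a regulatory light chain, and Ppp1r12b (1.95-fold), a subunit of myosin phosphatase, passed the limit. Rock1 and Rock2, kinases that inhibit that phosphatase, stood at 0.809-fold and 0.871-fold. Of 7 tested genes of calcium handling, channels and relaxation, Atp2b4 (1.77-fold), a calcium pump of the plasma membrane, passed the limit, and Ryr2, a calcium release channel, stood at 0.766-fold. Among regulators of the programme, Mrtfa, Mrtfb and Mef2c stood at log2 ratios of -0.37, -0.38 and 0.19, and none passed the limit. Srf itself had 4 and 3 UMIs, too few to compare.

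Single nuclei were compared after thinning each to 1000 UMIs, because the libraries differed in depth. This kept 265 WT and 120 HIF-1α KO smooth muscle nuclei and left out 0 and 1. A median of 3 of the 10 genes was found per nucleus in WT and 4 in HIF-1α KO, and the median number of UMIs of the set was 6 and 9.5. At least 5 of the 10 genes were present in 20.8% of the nuclei in WT against 40.8% in HIF-1α KO, and none in 6.42% against 3.33%. In goblet nuclei, which should lack these genes, none was found in 86.7% and 91.4%.

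The share of nuclei with at least 1 Acta2 UMI was 27.5% in WT (interval 22.3 to 33.3) and 36.7% in HIF-1α KO (interval 28.1 to 46.0) after thinning, and 43.8% and 62.0% before. For Des the shares were 17.0% (interval 12.7 to 22.1) and 30% (interval 22.0 to 39.0) after thinning, and 34.0% and 55.4% before. In goblet nuclei, at a median of 3083 and 5435.5 UMIs before thinning, the thinned shares were 2.11% and 0.797% for Acta2 and 1.75% and 0.996% for Des. The thinned intervals of the libraries overlapped for both genes. These intervals count nuclei, while those of the levels count UMIs and leave out the spread between nuclei, so their widths cannot be compared.

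Nuclei that held a UMI of Acta2 or of Des, as of every other member, also held more of the rest of the set. With at least 1 Acta2 UMI, the median of the other 9 genes was 7 UMIs in 73 WT nuclei and 14 in 44 HIF-1α KO nuclei, and without it 4 in 192 and 6 in 76 nuclei. With at least 1 Des UMI, the median was 7 in 45 WT and 14.5 in 36 HIF-1α KO nuclei, and without it 5 in 220 and 6 in 84. For Myocd the medians were 5 and 4 in WT and 10 and 8 in HIF-1α KO. For Cnn1 they were 11 and 5 in WT and 22 and 7 in HIF-1α KO, and for Synpo2 6 and 3 in WT and 12 and 4 in HIF-1α KO. In both libraries the nuclei with a given member had the higher median of the other 9 genes, for each member. This was thus not particular to Acta2 and Des, and these medians describe nuclei of 1 pool each.

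The smooth muscle nuclei split at a finer clustering into subgroups A and B, which were not given cell type names. The naming rule, applied at that clustering, kept A as smooth muscle and left B outside this class. The 3 markers of interstitial cells of Cajal summed to 261 CPM in WT and 182 CPM in HIF-1α KO in A, and to 475 and 499 CPM in B. Which cells B holds was not tested. Subgroup A (158 WT and 67 HIF-1α KO nuclei) was led by Tenm4, Epha7, Hand2os1 and Cdon and was high in Kcnip4. Kcnip4 was counted among the neuronal markers, but the other 6 markers of that list summed to 22 UMIs in WT and 17 in HIF-1α KO smooth muscle nuclei. Subgroup B (106 and 54 nuclei) was led by Ntrk3, Enpp2, Unc5c, Hmcn1 and Sox5. In WT the set stood at 8309 CPM in A and 5579 CPM in B.

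The difference between the libraries was wider in subgroup A, with intervals that did not overlap. There the set was 8309 CPM in WT and 17676 CPM in HIF-1α KO, 2.13-fold higher (log2 1.09, interval 1.03 to 1.15), while in B it was 5579 and 6830 CPM, 1.22-fold higher (log2 0.29, interval 0.17 to 0.42). In A, 8 of 10 genes were at least 1.5-fold higher, beside 12.1% of 2913 genes, and 0 were 1.5-fold lower, beside 8.58%. In B, of 9 genes with at least 50 UMIs, Myh11 was at least 1.5-fold higher, beside 15.2% of 1617 genes, and Myocd was at least 1.5-fold lower, beside 11.7%. Median depth in A was 2136 and 3826 UMIs and in B 1783 and 1480.5 UMIs, and the 5 naming markers summed to 9591 and 13085 CPM in A but to 8391 and 6229 CPM in B. The mitochondrial share was 0.087% and 0.425% in A and 0.389% and 0.400% in B. The 7 goblet markers summed to 1227 and 1754 CPM in A and to 1433 and 2936 CPM in B, and the 6 immune markers to 168 and 57.8 CPM in A and to 211 and 277 CPM in B. The part of these differences in the contrast between A and B was not tested.

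Acta2 and Des followed this split. Acta2 had 169 UMIs in WT and 313 in HIF-1α KO in A (2.24-fold, interval of log2 0.89 to 1.44) and 96 and 61 in B (1.22-fold, interval of log2 -0.20 to 0.76). Des had 111 and 290 UMIs in A (3.17-fold, interval of log2 1.34 to 1.99) and 56 and 40 in B (1.37-fold, interval of log2 -0.17 to 1.06). For both genes the interval in B lay below that in A. Lmod1, Mylk and Synpo2 stood at log2 ratios of 0.00, 0.06 and -0.01 in B. Their intervals there (-0.78 to 0.74, -0.41 to 0.52 and -0.45 to 0.42) include 0 and leave the direction open. Cnn1 was higher in both, at 2.71 in A and 1.80 in B (23 and 124 UMIs, and 11 and 20).

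Myocd went in opposite directions in the subgroups. It had 160 and 177 UMIs in A (401 and 538 CPM, log2 0.42, interval 0.11 to 0.74) and 229 and 79 UMIs in B (946 and 625 CPM, log2 -0.60, interval -0.98 to -0.22). In WT it was 2.36-fold higher in B than in A, whereas Synpo2, Actg2 and Myh11 were 2.77-fold, 1.82-fold and 1.80-fold higher in A. In HIF-1α KO the levels of Myocd in A and B lay within counting error of each other. Subgroup A held 62.0% of the UMIs of smooth muscle in WT and 72.2% in HIF-1α KO, and at the WT mix of the subgroups the set would be 1.87-fold higher in HIF-1α KO.

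**Figure D3:**
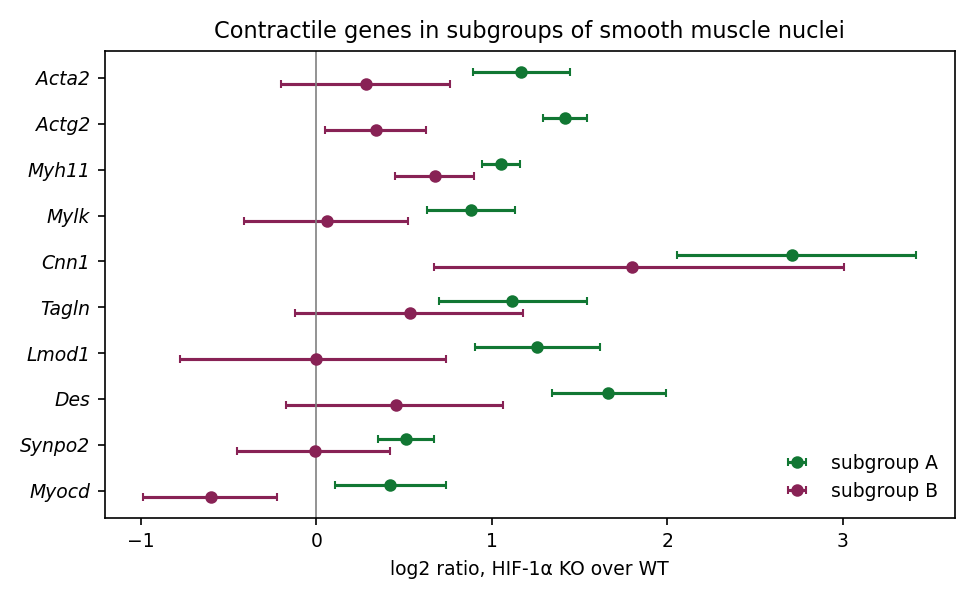
Log2 ratio of HIF-1α KO over WT for each contractile gene in subgroups A and B of the smooth muscle nuclei, with exact 95% counting intervals. All 10 genes lie above 0 in A, and in B the intervals of 6 genes include 0 and Myocd lies below it.

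**Figure D4:**
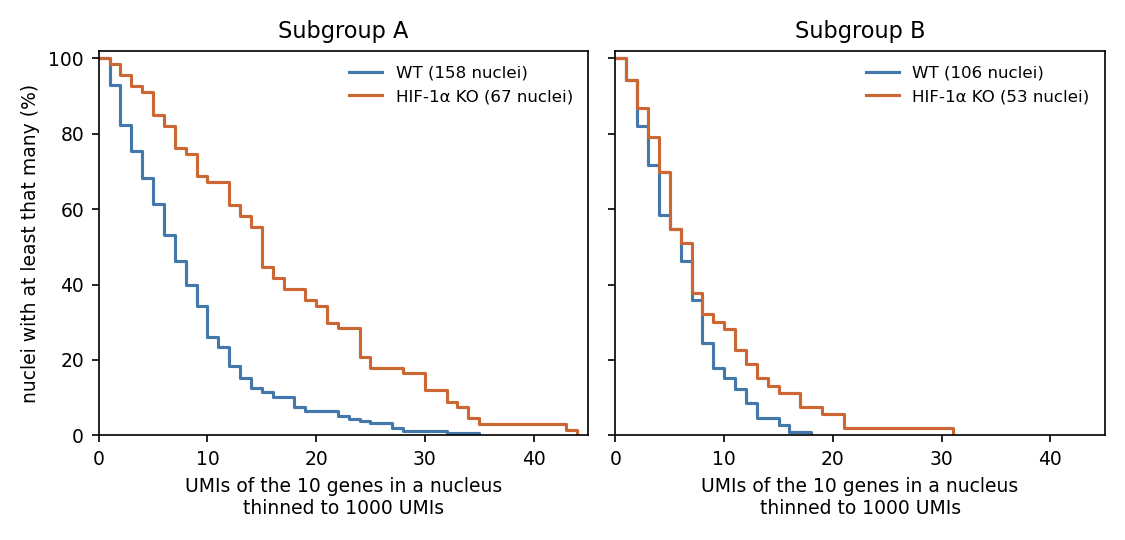
Share of smooth muscle nuclei, in percent, that held at least a given number of UMIs of the 10 genes after thinning to 1000 UMIs, for subgroup A and subgroup B. The curve of HIF-1α KO lies far to the right of WT in A, with medians of 14 and 6 UMIs, and near it in B, with medians of 6 and 5.

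In fibroblast nuclei, where Acta2 is read as a sign of myofibroblasts, the set was low and somewhat higher in HIF-1α KO. Its sum was 458 UMIs in WT (829 CPM) and 428 in HIF-1α KO (1222 CPM), 1.47-fold higher (log2 0.56, interval 0.37 to 0.75). Of 6 genes with at least 50 UMIs, 3 (Acta2, Actg2 and Myh11) were at least 1.5-fold higher, beside 10.7% of 3904 genes, and 0 lower, beside 6.79%. Of the genes under 50 UMIs, Lmod1 (20 and 28 UMIs) was 2.21-fold higher (interval 1.20 to 4.13). The intervals of Des, Cnn1 and Tagln included equal levels. Acta2 had 46 and 44 UMIs (83.3 and 126 CPM), and its ratio of 1.51-fold had an interval from 0.97 to 2.33, so a difference was not detectable at this depth. Actg2 had 19 and 44 UMIs (34.4 and 126 CPM, 3.65-fold) and Myh11 had 121 and 126 (219 and 360 CPM, 1.64-fold). Before thinning, Actg2 was found in 4.82% of the nuclei in WT and 9.17% in HIF-1α KO, and Myh11 in 23.2% and 30%. After thinning, the 10% of nuclei with the most UMIs of the set held 63.6% and 59.0% of them. At least 5 of the 10 genes were present in 1 WT and 3 HIF-1α KO nuclei, so few nuclei carried much of the set.

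Des had 9 UMIs in WT and 4 in HIF-1α KO fibroblast nuclei. Its ratio could not be placed at this depth (log2 interval -2.67 to 1.33), so whether Des moved with Acta2 in this class was not detectable. Before thinning, 14.0% of fibroblast nuclei in WT and 15.0% in HIF-1α KO had an Acta2 UMI, and after thinning 6.14% and 6.09%. The shares of nuclei with a UMI were thus nearly equal. Of the smooth muscle markers, Carmn was 1.72-fold higher in fibroblast nuclei (interval 1.04 to 2.88), Pgm5 1.76-fold (interval 1.14 to 2.70) and Sntg2 1.84-fold (interval 1.10 to 3.10), Dmd stood at 1.10-fold and Cacnb2 at 0.616-fold, and all 5 together at 1291 and 1410 CPM. The 3 markers of interstitial cells of Cajal summed to 161 and 240 CPM, with Ano1 at 99.6 and 191 CPM, Kit at 21.7 and 8.56 CPM and Etv1 at 39.8 and 40.0 CPM. The 7 pericyte markers summed to 252 and 300 CPM and the 7 goblet markers to 1305 and 2238 CPM, and the mitochondrial share was 0.14% and 0.31%. Their part in the fibroblast values was not tested.

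In the other nuclei, which include the epithelium, the set went the opposite way. It stood at 242 CPM in WT and 160 CPM in HIF-1α KO (log2 -0.59, interval -0.67 to -0.52). Of the 10 genes, 7 were at least 1.5-fold lower, beside 15.4% of 14083 genes, and 0 at least 1.5-fold higher, beside 13.2%. Acta2 was 23.3 and 8.29 CPM, Myh11 68.0 and 30.1 CPM, and Myocd 8.87 and 2.15 CPM. Mylk was the exception at 59.4 and 70.1 CPM (log2 0.24, interval 0.11 to 0.37). Des was 14.8 and 11.8 CPM (log2 -0.33, interval -0.61 to -0.05). Except for Mylk, the members stood at no more than 68.0 CPM in these nuclei in both libraries, and whether this was RNA free in the suspension was not tested. The mix of clusters in this class differed between the libraries. An unnamed cluster with 699 WT and 146 HIF-1α KO nuclei held the set at 595 and 594 CPM, while most other clusters were lower in HIF-1α KO. In epithelial nuclei the log2 ratio of the set was -0.21 (interval -0.32 to -0.09). The part of the mix in the value of this class was not tested.

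**Figure D5:**
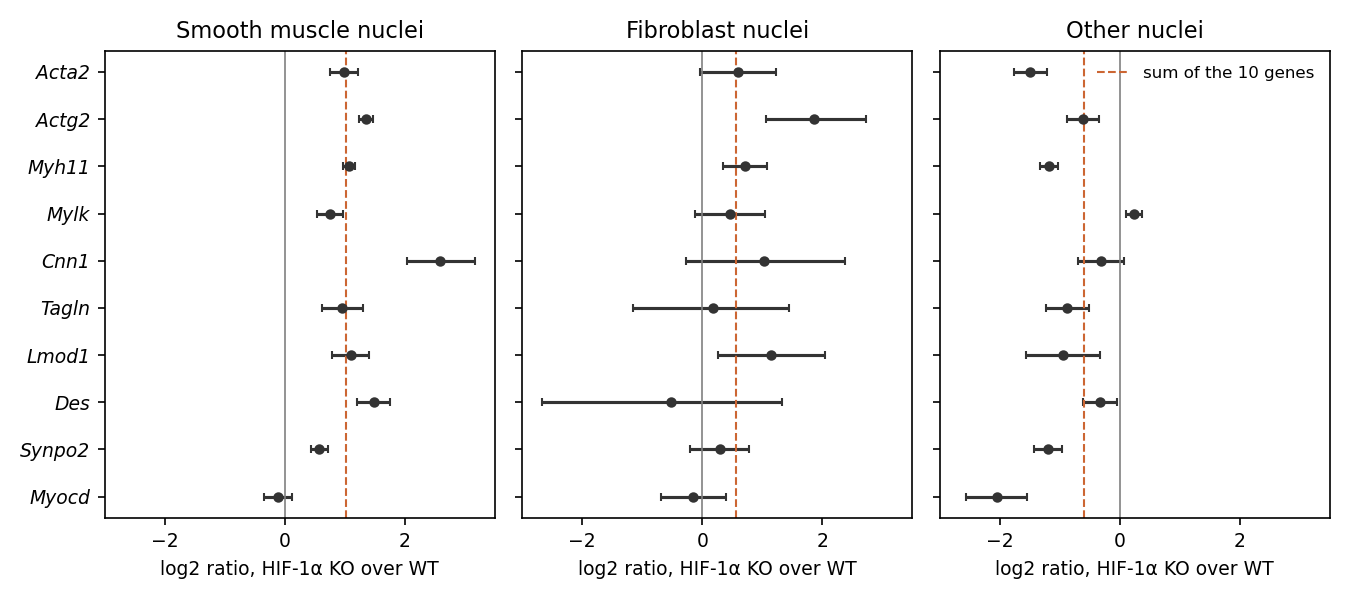
Log2 ratio of HIF-1α KO over WT for each contractile gene in smooth muscle, fibroblast and other nuclei, with exact 95% counting intervals and the ratio of the summed set as a dashed line. The summed set lies at 1.01 in smooth muscle, 0.56 in fibroblast and -0.59 in other nuclei.

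Over all nuclei together the set was lower in HIF-1α KO, at 607 CPM in WT and 456 CPM in HIF-1α KO (log2 -0.41, interval -0.45 to -0.37), while smooth muscle nuclei made up 5.43% and 2.57% of nuclei. In such a sum, fewer cells of a type and less RNA per cell cannot be told apart. Of the 10 genes, 4 (Acta2, Tagln, Synpo2 and Myocd) were at least 1.5-fold lower, beside 16.5% of 14393 genes, and 0 were 1.5-fold higher, beside 13.3%. Acta2 had 593 and 607 UMIs (44.7 and 25.7 CPM, log2 -0.80) and Des had 354 and 602 (26.7 and 25.5 CPM, log2 -0.07, interval -0.26 to 0.13). Acta2 lay below the summed set here and Des above it, and their intervals did not overlap.

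The members also differed in length. Their genes ran from 6.44 kb (Tagln, chromosome 9) to 257 kb (Mylk, chromosome 16) in the GENCODE M21 annotation of GRCm38. Over the 10 genes the Spearman rho of gene length and log2 ratio in smooth muscle nuclei was -0.55, given as a description of genes that share both libraries. Of the 484 tested genes under 20 kb, 20.2% were at least 1.5-fold higher, against 10.6% of 2254 genes of 20 to 100 kb and 10.9% of 1409 longer ones. Acta2 (14.5 kb), Des (8.25 kb), Cnn1 (10.4 kb) and Tagln are in the short class, while Myh11 (96.8 kb), Lmod1 (43.3 kb) and Actg2 (23.4 kb) are not. Gene length moves with the result, and its part was not tested.

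The genes outside the list whose level most resembled the summed set over 17 clusters in both libraries (34 points, which share their libraries) were Lrch2 (Pearson r 0.96), C1qtnf7 (0.95), Dysf (0.94), Samd4 (0.94), Enah (0.94), Grem1 (0.94), Tns1 (0.94), Jph2 (0.94), Nhsl2 (0.94) and Colec12 (0.93). In smooth muscle nuclei the ratios of these 10 genes in HIF-1α KO over WT ran from 0.879-fold (Enah) to 1.78-fold (Nhsl2), under the 2.02-fold of the summed set. Nhsl2, Jph2 (1.72-fold) and Grem1 (1.54-fold) were at least 1.5-fold higher, beside 11.8% of the 4150 tested genes. The members Acta2, Tagln, Mylk, Synpo2 and Myocd were under 2.02-fold as well.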

How the data were processed

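Colon nuclei of 2 pools, 1 per genotype, were measured by 10x Genomics single-nucleus RNA sequencing. The authors deposited counts of UMIs per gene and barcode, before a filter on quality. The submitters' processing notes name Cell Ranger 7.0.1 and mm10, and whether intronic reads were counted is not given in the sources used here. Libraries held 13492810 UMIs over 4896 barcodes (WT) and 25489277 over 4772 (HIF-1α KO).

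Nuclei with 400 to 5000 genes and at most 10% mitochondrial UMIs were kept, as the study's methods state. R 4.3.3 with Seurat 5.3.0 integrated both libraries (2000 variable features, 30 principal components, resolution 1, seed 1), with the 10 contractile genes and the 36 genes of the further list left out of the features. No doublet caller was run. A cluster was given to the class whose markers had the greatest average log2 ratio over all other nuclei (10 CPM added), if at least 3 markers reached a log2 ratio of 1 and were found in 10% of its nuclei and at least 2 stood among its 10 leading genes. No other marker list was allowed more genes among those 10 leading genes than the list of that class. These limits were chosen once the data had been seen. Classes of the other nuclei, endothelial and immune among them, were not analysed further. UMIs were summed per class and library and given per 1000000 UMIs (CPM). Levels have exact Poisson, shares exact Clopper-Pearson and ratios exact conditional binomial intervals at 95%. A gene entered the counts of genes past 1.5-fold with at least 50 UMIs in both libraries together. Levels are not scaled by length and are compared within a gene.

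Named genes were the 10 members, the markers, the further list, Hif1a, the 5 highest and 5 lowest ratios in smooth muscle nuclei, and the 10 other genes with at least 200 UMIs most like the summed set by Pearson r of log2(CPM + 10) over clusters with at least 50 nuclei per library. Some genes leading subgroups A and B were named after their values were seen. The further list, markers and alternatives were chosen with earlier results of these data known. The computation of ratios was checked on simulated Poisson counts of the class sums. These hold no spread between nuclei or animals, so they cannot show whether the intervals cover it. Python 3.11.15, numpy 2.4.6, pandas 2.3.3, scipy 1.17.1, and edgeR 4.0.16 for the factors of the trimmed mean of M-values (TMM) were used. Promoters came from RefSeq (GRCm38.p6) and gene lengths from GENCODE M21.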

Additional observations from a re-analysis of the deposited data

Results flagged for a closer look

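Myocd differed in opposite directions in the subgroups of smooth muscle nuclei, at a log2 ratio of HIF-1α KO over WT of 0.42 in subgroup A and -0.60 in subgroup B. The difference between the subgroups was not tested, and each direction rests on 1 library per genotype. The summed set also went in opposite directions by class, at a log2 ratio of 1.01 in smooth muscle nuclei and -0.59 in other nuclei, and this difference was not tested either. The mix of clusters within the other nuclei differed between the libraries. No group held enough libraries to look for a library apart from its group.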

How the results depend on the processing

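With each nucleus assigned by its own markers (740 WT and 366 HIF-1α KO smooth muscle nuclei), the log2 ratios of HIF-1α KO over WT in smooth muscle were 0.44 for the summed set, 0.42 for Acta2, 0.85 for Des and 0.41 for the median of the 8 others, 3 genes were 1.5-fold higher, and the set stood at 0.25 in fibroblast nuclei. The cause was not tested. The summed set in smooth muscle was 1.09 at resolution 2 (which left subgroup A alone), 0.90 with nuclei weighted equally and 0.86 thinned to 1000 UMIs. Those last 2 settings gave 0.31 and 0.35 in fibroblast nuclei, and -0.34 and -0.36 in all nuclei, where leaving out the top 5% of nuclei by UMIs gave -0.46. At 2-fold, 5 genes passed. With at least 20 or 200 UMIs, 12.9% or 3.47% of genes were 1.5-fold lower.

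Settings chosen after seeing the data also moved values. Per UMI of the 5 markers, the summed set was 0.72, Acta2 0.69 and Des 1.18. In subgroup A alone the summed set was 1.09. In subgroup B alone the summed set was 0.29, Acta2 0.28, Des 0.45, the median of the 8 others 0.20 and the share of Des within the set 0.16, with 2 genes past 1.5-fold (Myh11, and Cnn1, which has under 50 UMIs there) and Synpo2 reversed at -0.0082. With 2 more clusters taken as fibroblast, the set there stood at 0.45. Otherwise the sums, Acta2, Des and the shares within the set stayed within their counting intervals, and counts within 1.5 times. The median of the 8 others has no exact interval. In its place stood a band from the median of the 8 genes' lower limits (0.70) to that of their upper limits (1.23). The median otherwise stayed within this band, which is not a counting interval. Of 104 values of the 8 other genes taken singly, 73 stayed within their interval, 30 left it and 1 reversed. Among these, Synpo2 stood at 0.03 by own markers, 0.27 weighted equally, 0.35 thinned and 0.28 per marker UMI. Myocd, not called in either direction, stood at 0.17 thinned, 0.42 at resolution 2 and -0.66 by own markers, which is over 1.5-fold lower. The ratios of Acta2, Des and the summed set in smooth muscle stayed above 0 under the 13 settings tried. Of these, resolution 2 and subgroup A alone are the same nuclei. In subgroup B alone the intervals of Acta2 (log2 -0.20 to 0.76) and Des (log2 -0.17 to 1.06) include 0. Depth limits Des in fibroblast nuclei, at 9 and 4 UMIs. No paired analysis was possible because each genotype had 1 library.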

Other observations

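Beside the contractile genes, the highest ratios of HIF-1α KO over WT in smooth muscle nuclei were those of Agbl3 (20 and 117 UMIs, log2 3.05), Grm7 (10 and 51 UMIs, log2 2.85), Lama3 (10 and 47 UMIs, log2 2.73) and G930009F23Rik (13 and 51 UMIs, log2 2.47), with Cnn1 (34 and 144 UMIs, log2 2.58) between Lama3 and G930009F23Rik. Lama3, a laminin chain of basement membranes, and Grm7, a glutamate receptor gene, are not part of the contractile apparatus. Lama3 was also among the 10 leading genes of an absorptive enterocyte cluster, and the part of RNA from other cells in these ratios was not tested.

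The lowest ratios were those of Tafa1 (52 and 4 UMIs, log2 -3.20), Negr1 (93 and 8 UMIs, log2 -3.04), Lbr (51 and 5 UMIs, log2 -2.85), Hs6st3 (78 and 9 UMIs, log2 -2.62) and Adamts9 (59 and 7 UMIs, log2 -2.58). Lbr encodes a protein of the inner nuclear membrane and Adamts9 a secreted matrix protease. No contractile gene stood among these.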
